A study of Arabidopsis thaliana with 10 samples.

Results

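The oxt6 mutant of Arabidopsis thaliana was set against oxt6 plants to which the small AtCPSF30 protein had been added back, in leaves of 30-day-old soil-grown plants. The comparison used 7 of the 10 arrays of the series, chosen by their titles, with 3 oxt6 arrays against 4 oxt6:AtCPSF30 arrays, 2 from line 5 and 2 from line 6, called the complemented leaves here. The oxt6 plants carry a T-DNA insertion in the first exon of At1g30460 and lack both proteins of that gene. The complemented plants carry the same insertion plus a transgene, a genomic fragment with the gene's own promoter that encodes only the smaller protein, and the 2 lines are independent transformants. The remaining 3 arrays, of wild-type leaves that make both proteins, are given beside the comparison. All plants were in the Columbia background and were grown at 22 to 26 °C with 8 h of light and 16 h of dark. Each array held RNA pooled from 10 to 15 plants, and the arrays came from 6 samples prepared per line. The complemented leaves still lack the larger protein, so a difference between them and the wild type holds both its absence and the presence of the transgene, which cannot be told apart there.

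Most plant messenger RNAs are cut near their 3′ end and given a poly(A) tail by a complex of proteins that includes the cleavage and polyadenylation specificity factor, CPSF. AtCPSF30 is its smallest subunit, a zinc-finger protein that binds RNA, cuts RNA and binds calmodulin, the calcium sensor of the cell. The same gene also gives a longer mRNA for a protein in which AtCPSF30 is joined to a YT521-B-like domain, a module that binds methylated RNA. The choice of the poly(A) site sets the 3′ end of a transcript and can change its stability or its translation.

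The fragment that was added back is defined by the PCR primers that bound it, shown here because they fix which part of At1g30460, on chromosome 1, the complemented plants regained. The capitals mark the restriction sites attached to the 5′ ends for cloning, BamHI in the upstream primer and PstI in the downstream primer, and the lower-case letters are the part designed to the plant DNA.
OXT6-1: GGATCCattaggccattgagcacagcact
OXT6-2: CTGCAGacaacttcaagcgcaatctggtaa
The fragment ends within the gene, so the transgene has the exons of the short mRNA and not those specific to the long one.

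The array has a single probe set for At1g30460 (CPSF30), which reads only the longer mRNA. Its intensity was 27.1, 54.7 and 38.1 on the oxt6 arrays, 16.0, 18.7, 16.0 and 16.0 on the complemented arrays, and 39.2, 38.7 and 71.2 on the wild-type arrays. The deposited values have a floor at 16, so the complemented arrays lay at or near it, and the oxt6 and wild-type arrays overlapped. The probe set was too dim to be among those compared and does not read the small mRNA, so it checks neither the mutation nor the transgene. Photosynthesis genes marked the samples as green tissue, with LHCB4.1, a light-harvesting protein described below, at 926 or more on all 10 arrays, where the median probe set read 40.9 to 60.5. Of the markers listed for guard cells, flowers, the shoot apex and roots, PYK10, a root beta-glucosidase, was the only one bright enough to be compared, at 194, 179 and 205 on the oxt6 arrays and 253, 274, 331 and 304 on the complemented arrays (log2 difference −0.58 ± 0.19 SE, adjusted p = 0.0125 in limma, n = 3 and 4).

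The control probe sets of the array showed a difference between the arms that bears on every value that follows. Actin, GAPDH and ubiquitin, genes that every cell uses, are each read by a probe set at the 3′ end and one nearer the 5′ end of the mRNA, and because labelling starts at the poly(A) tail the 5′ probe set loses signal where RNA is shortened. The 5′ probe set of actin read 350, 60.6 and 62.5 on the oxt6 arrays, against 1328, 1426, 1578 and 1576 on the complemented arrays. The wild-type arrays read 166, 176 and 86.1 there, so the complemented arrays stood apart from both other arms. The 3′/5′ signal, the mean over the 3 genes of log2 of the 3′ minus log2 of the 5′ intensity, was 1.09, 2.88 and 2.75 in oxt6 leaves and 0.081, 0.103, −0.053 and 0.027 in complemented leaves. It averaged 2.24 ± 1.0 in oxt6 leaves and 0.0392 ± 0.0694 in complemented leaves (SD, n = 3 and 4), a difference of 2.2, and no array of one arm reached the other (p = 0.0286 in an exact permutation test, two-sided, with no smaller value possible over the 35 assignments). In wild-type leaves it was 2.18 ± 0.18 (SD, n = 3). The first oxt6 array lay between the other oxt6 arrays and the complemented ones.

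**Figure D1:**
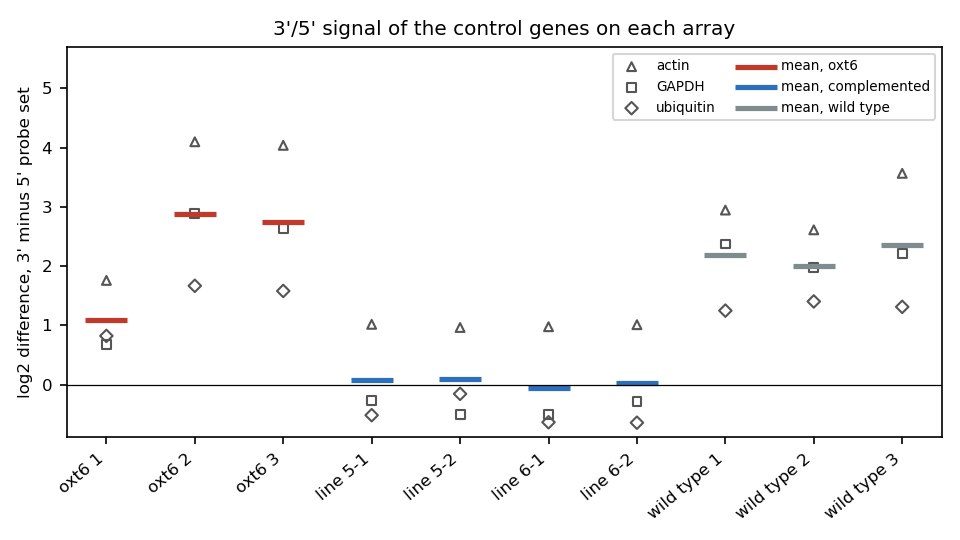
The 3′/5′ signal of the control genes on each of the 10 arrays, as a log2 difference between the 3′ and 5′ probe sets, with actin, GAPDH and ubiquitin as open symbols and their mean as a bar. The 4 complemented arrays lie near 0 (−0.053 to 0.103), while the 3 oxt6 arrays lie at 1.09, 2.88 and 2.75 and the wild-type arrays near 2.18.

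The signal and the genotype cannot be told apart in full, because every complemented array was near 0 and every other array was at 1.09 or more. Within the oxt6 arm the signal did vary, and the arrays varied with it. Over the probe sets compared, the first oxt6 array correlated at 0.834 and 0.831 with the line 5 arrays, while the other oxt6 arrays correlated at 0.684 to 0.687 with them, a description across probe sets of the same libraries. Among the 2832 probe sets that were at least 2-fold lower in oxt6, the first array was the highest of the 3 oxt6 arrays at 64.2%, against 24.4% over all probe sets compared. For this reason the calls are also given from a second fit that holds this signal as a covariate, called the fit with the control signal. Within the oxt6 arm that fit rests mostly on the first array, and a call it loses is not shown to be unrelated to AtCPSF30. Nor is a call it keeps shown to be free of the signal.

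Across the genome the oxt6 and complemented leaves differed at most transcripts. Of the 12453 brightest probe sets, 8631 (69.3%) passed at an adjusted p under 0.05 in limma, a linear model fitted to every probe set with Benjamini-Hochberg adjustment over all of them. Of these, 4028 (32.3%) were higher and 4603 (37.0%) were lower in oxt6. At 2-fold or more 4967 (39.9%) passed, of which 2135 (17.1%) were higher and 2832 (22.7%) lower. The arrays of the arms did not overlap at 3913 probe sets (31.4%) that were higher and 4597 (36.9%) that were lower. In the fit with the control signal, 881 probe sets (7.07%) were called higher and 2212 (17.8%) lower. The wild-type leaves, compared with the same complemented arrays, were higher at 33.8% and lower at 38.0%, and oxt6 leaves compared with wild-type leaves were higher at 16.4% and lower at 12.3%. These comparisons share arrays and are not independent of each other. A change in RNA per cell and a change in the number of cells of a type cannot be told apart in whole leaves.

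The transcript with the largest rise in oxt6 was that of SAUR63, and 3 of the 12 highest were SAUR genes. SAUR63, a member of the SAUR family of short proteins that promote cell expansion, read 1317, 2060 and 1882 on the oxt6 arrays and 102, 76.7, 59.2 and 54.2 on the complemented arrays. The arms were more than 10-fold apart on every pairing of arrays, and the fitted difference was a log2 of 4.59 ± 0.23 (SE, adjusted p = 3.78e-08), or 24.0-fold. Wild-type leaves lay between, at 508, 446 and 437. The other SAUR genes among the 12 highest were lower in that order, with AT4G38840 at 4149, 4792 and 4334 in oxt6 and 434, 435, 221 and 240 in complemented leaves, and SAUR15 at 944, 1312 and 1216 against 98.4, 124, 55.2 and 47.7. Their log2 differences were 3.80 and 3.91.

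BNQ2, a small helix-loop-helix protein without a DNA-binding region of its own, read 1158, 1872 and 1769 in oxt6 leaves and 96.7, 109, 72.0 and 71.9 in complemented leaves (log2 4.17). RL6, a MYB-related protein of the RADIALIS-like family, read 787, 880 and 825 against 81.9, 76.5, 38.7 and 30.1 (log2 3.97). In both genes every oxt6 array was above every complemented array, and wild-type leaves were in between, at 331 to 520 for BNQ2 and 330 to 389 for RL6. AT1G22690 and AT5G48490 rose by log2 4.31 and 4.28, and for these the wild type, with 965 to 978 and 1323 to 1774, was also far above the complemented leaves. These 7 genes stayed called in the fit with the control signal, at log2 values of 3.18 to 3.82.

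The transcript lowered most in oxt6 was SAT32, named for a role in salt tolerance. It read 83.5, 82.2 and 78.6 on the oxt6 arrays and 1981, 2600, 3208 and 3176 on the complemented arrays, a log2 difference of −5.03 ± 0.19 (SE, adjusted p = 9.91e-09), or 32.7-fold. The wild-type arrays, at 87.5, 89.1 and 111, were close to the oxt6 ones, so the complemented leaves alone were high. OPR3, a reductase of jasmonate synthesis, differed among all 3 arms. It read 112, 148 and 108 in oxt6 leaves, 3728, 3439, 1765 and 1793 in complemented leaves and 661, 582 and 703 in wild-type leaves (log2 −4.37 for oxt6 against complemented). AGAL1, an alpha-galactosidase, read 62.5, 60.1 and 53.8 in oxt6 leaves and 767, 877, 1501 and 1397 in complemented leaves (log2 −4.19), with the wild type at 177 to 204. PWD, the phosphoglucan water dikinase that prepares starch for breakdown, read 143, 142 and 131 against 1563, 1174, 2654 and 2526 (log2 −3.75), with the wild type at 171 to 236. In SAT32, OPR3, AGAL1 and PWD the 3 oxt6 arrays lay close together. Their log2 differences in the fit with the control signal were −4.98, −4.78, −3.91 and −3.66, all still called. Wild-type arrays, whose 3′/5′ signal was also high, were likewise far below the complemented ones for SAT32 and PWD. The part of that signal in these 4 genes was not tested beyond the fit.

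In a second set of strongly lowered transcripts the oxt6 arrays lay apart from each other. PRXR1, a secreted class III peroxidase, read 2585, 338 and 285 on the oxt6 arrays and 7612, 8209, 8895 and 9037 on the complemented arrays (log2 −3.74 ± 0.54 SE, adjusted p = 4.6e-05). FDH, the mitochondrial formate dehydrogenase, read 1004, 208 and 176 against 3126, 3220, 4576 and 4711 (log2 −3.52). PDC2, a pyruvate decarboxylase of fermentation, read 136, 36.5 and 16.0 against 708, 663, 957 and 973 (log2 −4.20). In these the first oxt6 array, the one with the lowest 3′/5′ signal of its arm, lay well above the other oxt6 arrays and towards the complemented ones. In the fit with the control signal the log2 differences were 0.02 for PRXR1, −0.51 for FDH and −1.12 for PDC2, and none was called. ARF2, discussed with the auxin genes, and PRH75, a nucleolar RNA helicase at 244, 78.0 and 63.6 against 1072, 1195, 1499 and 1507, showed the same order of arrays but stayed called at −1.09 and −1.42. The part of the 3′/5′ signal in these differences was not tested beyond that fit.

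**Figure D2:**
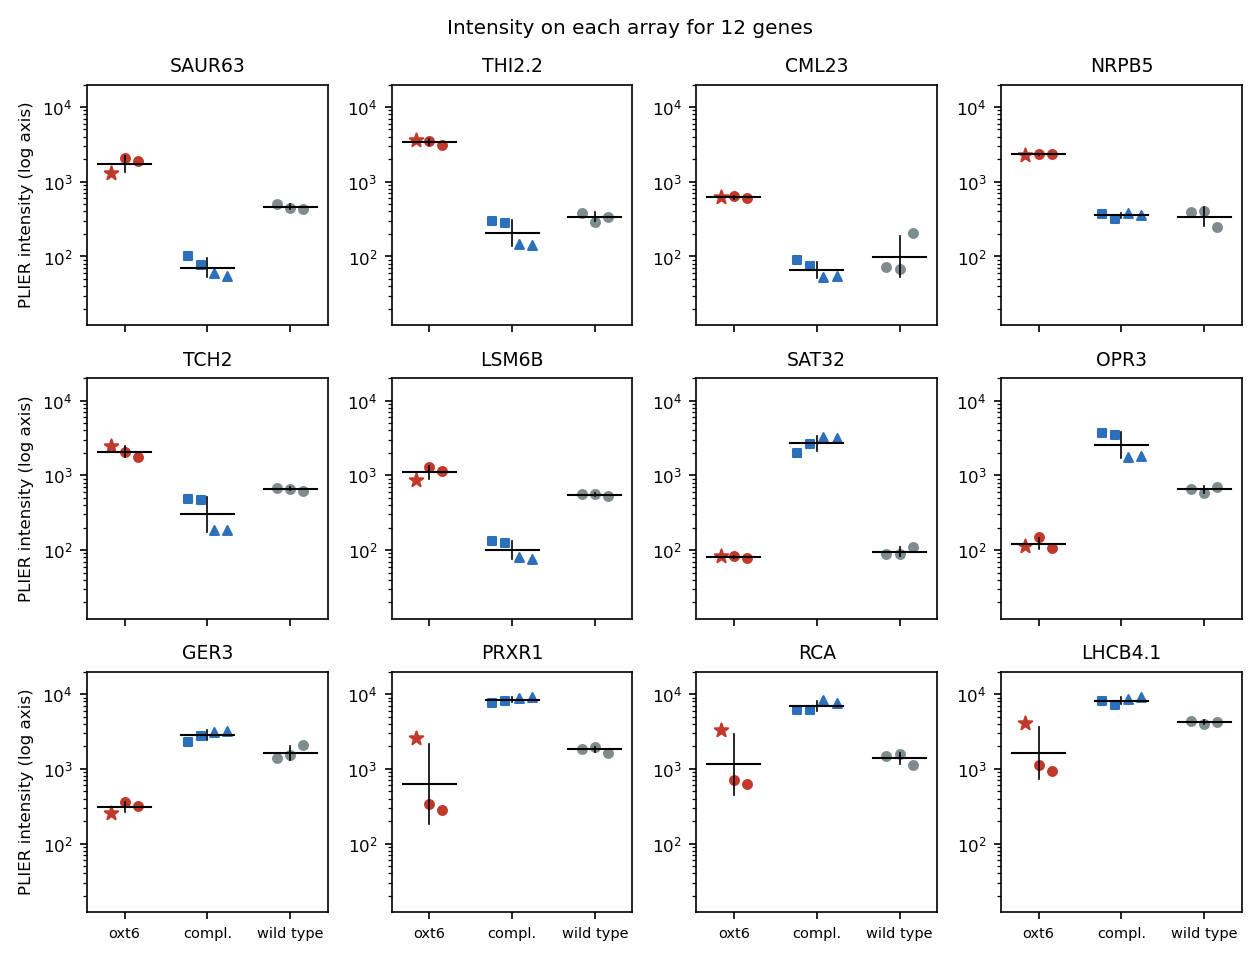
PLIER intensity on a log axis of 12 genes on each array, oxt6 in red with the first oxt6 array as a star, complemented line 5 as squares and line 6 as triangles, wild type in grey, with the mean and SD of the log2 values as bar and line. The oxt6 arrays of SAT32, OPR3 and NRPB5 lie together, while for PRXR1, RCA and LHCB4.1 the first oxt6 array (2585, 3351 and 4080) lies between the others and the complemented arrays.

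Genes that differed between oxt6 and complemented leaves, and for which complemented leaves were near the wild type, were taken separately. Of the 7240 probe sets compared that name 1 gene, 4747 were called and had arms that did not overlap. Of these, 2504 were higher and 2243 lower in oxt6. For 1171 of the higher and 907 of the lower ones the wild-type mean was within 2-fold of the complemented mean. That limit is a description of closeness, and some of the genes below still differed between wild-type and complemented leaves. The share of all probe sets within it was not counted, so these counts do not measure how much was restored.

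THI2.2, a thionin with antimicrobial activity in its family, led those that were higher. It read 3646, 3539 and 3067 in oxt6 leaves, 302, 280, 146 and 144 in complemented leaves and 386, 292 and 342 in wild-type leaves (log2 4.04 for oxt6 against complemented, adjusted p = 1.02e-07). AT1G29490, another SAUR gene, read 158, 319 and 311 in oxt6 leaves and lay at 21.9 to 25.0 on all complemented and wild-type arrays (log2 3.37). CML23, a calmodulin-like calcium sensor, read 619, 649 and 597 against 88.4, 73.5, 52.6 and 54.8 in complemented leaves, with the wild type at 71.6, 67.7 and 205 (log2 3.22). In these 3 genes the oxt6 arrays stood above all 7 other arrays. FHL, a partner of phytochrome A in far-red light sensing, rose by log2 3.16, and CYCD3;3, a D-type cyclin, by 2.91, with wild-type leaves at 109 to 116 and 56.1 to 93.1. All 5 stayed called in the fit with the control signal, THI2.2 at 4.05 and the others at 1.95 to 2.84.

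Among genes lower in oxt6 with the wild type near the complemented level, GER3, a germin-like cell wall protein, had the largest difference. It read 260, 355 and 321 in oxt6 leaves, 2316, 2726, 3159 and 3214 in complemented leaves and 1377, 1548 and 2055 in wild-type leaves (log2 −3.19, adjusted p = 7.55e-08). AT5G10760 read 47.7, 27.8 and 17.1 in oxt6 leaves, against 174 to 302 in complemented and 158 to 209 in wild-type leaves (log2 −2.97). WAK1, a kinase anchored in the cell wall that binds pectin, read 35.9, 33.6 and 27.2 against 146 to 275, with the wild type at 90.2 to 129 (log2 −2.66). GER3, AT5G10760 and WAK1 kept their calls in the fit with the control signal, at −3.69, −1.53 and −2.20. GSTF9, a phi-class glutathione S-transferase, and PLAT1, a lipid-binding-domain protein, did not. GSTF9 read 2919, 1018 and 959 in oxt6 leaves and 7276 to 8987 in complemented leaves, with log2 differences of −2.51 without and −0.53 in the fit with the control signal. The corresponding values for PLAT1 were −2.50 and −0.87.

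Auxin signalling runs from repressors of the Aux/IAA family, which auxin removes, through the auxin response factors (ARFs) that bind DNA, to targets such as the SAUR genes. The SAUR, Aux/IAA and ARF families were picked after the values were seen, so their counts give no independent evidence. Of 34 SAUR probe sets compared, 32 were higher in oxt6 and none was lower, against 32.3% and 37.0% over all probe sets compared. Their median log2 difference was 2.21, against −0.03 over all. The 2 that did not pass, named here after their values were seen, were AT3G12830 and AT1G56150, with log2 differences of 0.25 and −0.18. The median over the SAUR genes of the difference from the complemented mean was 1.84, 2.41 and 2.33 on the oxt6 arrays and 1.27, 1.27 and 1.6 on the wild-type arrays, so the complemented leaves were low against both. In the fit with the control signal, 21 of the 34 were higher and none lower, with a median of 1.52.

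**Figure D3:**
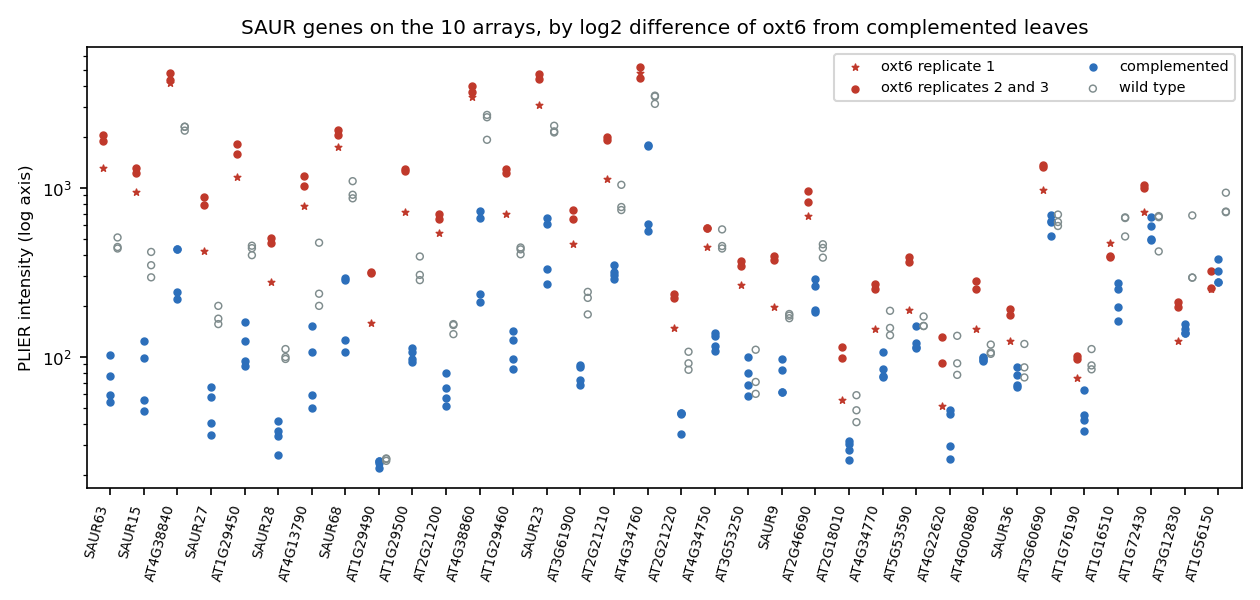
PLIER intensity on a log axis of the 34 SAUR genes compared, each as 3 oxt6 arrays (the first as a star), 4 complemented arrays and 3 wild-type arrays, in falling order of the log2 difference between oxt6 and complemented leaves. The oxt6 points lie above the complemented points for 32 genes, from SAUR63 at a log2 difference of 4.59 downwards.

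Of the Aux/IAA repressors, 8 of 16 were higher and 4 lower, but with the control signal in the fit 1 was higher and none lower. IAA5 read 253, 408 and 377 in oxt6 leaves and 60.5, 50.6, 46.1 and 41 in complemented leaves (log2 2.76), and it stayed called in the fit with the control signal (1.86). IAA16 read 575, 243 and 206 against 1504, 1684, 1706 and 1804 (log2 −2.44), and IAA7 read 714, 241 and 206 against 1381, 1304, 1286 and 1408 (log2 −2.03). The first oxt6 array was the highest of its arm for both IAA16 and IAA7, and neither was called in the fit with the control signal (−0.76 and 0.00). Of 11 ARF probe sets, 2 were higher and 5 lower, and none was higher and 5 lower with the control signal in the fit. ARF2, a repressor of cell growth, is read by 2 probe sets that both fell, at 323, 76.5 and 83.8 against 1405, 1252, 1825 and 1879 (log2 −3.61) and at 52.3, 45.5 and 30.2 against 291, 385, 439 and 423 (log2 −3.16). Wild-type leaves were at the oxt6 level for ARF2, at 112 to 128 and 21.7 to 47.7.

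In the RNA machinery the direction differed between complexes. RNA polymerase II, which makes messenger RNA, had 4 of 5 subunits compared higher in oxt6 and none lower, with a median log2 difference of 2.09. NRPB5 read 2312, 2386 and 2317 in oxt6 leaves, 368, 313, 382 and 358 in complemented leaves and 396, 410 and 245 in wild-type leaves, a log2 difference of 2.72 ± 0.19 (SE, adjusted p = 1.63e-07). The 3 oxt6 arrays of NRPB5 agreed closely, and complemented and wild-type leaves overlapped. NRPB12 read 915, 1310 and 1100 against 177, 194, 166 and 146 (log2 2.68), but its wild-type level of 797 to 907 was near that of oxt6. All 4 subunits stayed called in the fit with the control signal.

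The LSM and Sm proteins form rings that hold small RNAs in splicing and bind messages marked for decay. Of 7 compared, 6 were higher in oxt6 and none lower, with a median of 1.68, and 4 were higher and none lower with the control signal in the fit. The LSM and Sm family was picked after the values were seen. LSM6B read 868, 1308 and 1148 against 133, 124, 79.6 and 76.5 (log2 3.44), and LSM3A read 608, 827 and 787 against 132, 130, 136 and 96.9 (log2 2.57), with wild-type leaves between the arms for both. Polyadenylation factors, the partners of AtCPSF30, went the other way, with all 4 compared lower in oxt6, where 37.0% of all probe sets were. These were 4 of 7 probe sets listed, and 2 of them passed at 2-fold or more. AT5G65260, a nuclear poly(A)-binding protein, read 126, 110 and 115 against 346, 326, 502 and 511 (log2 −1.81), and AT4G25550, the small subunit of cleavage factor I, read 142, 87.5 and 84.5 against 294, 271, 353 and 349 (log2 −1.62). The wild type, at 88.2 to 89.4 and 106 to 123, was close to oxt6 for both. In the fit with the control signal only 1 of the 4 stayed called, AT5G65260 (−1.54), and AT4G25550 was among those that did not (−0.68).

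**Figure D4:**
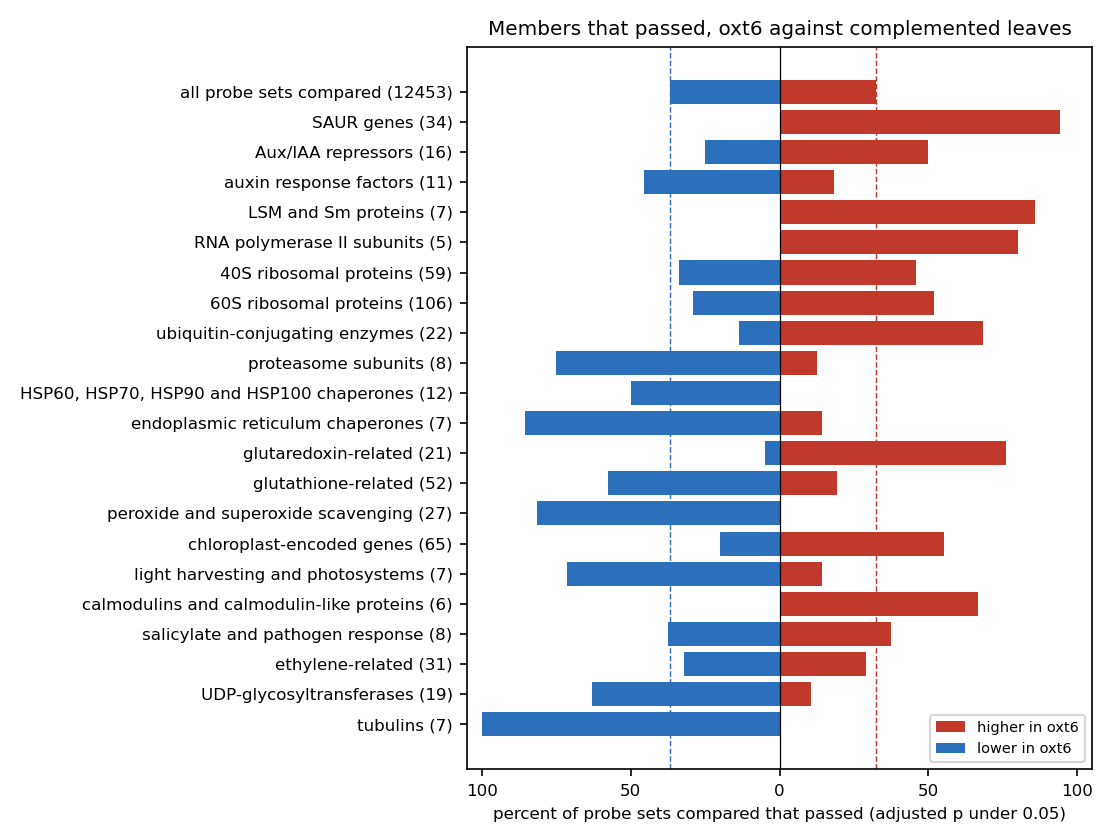
Percent of the compared members of each gene list that passed at an adjusted p under 0.05 in limma, higher in oxt6 to the right in red and lower to the left in blue, with the number compared in brackets and the shares over all probe sets (32.3% and 37.0%) as dashed lines. SAUR genes (32 of 34) and tubulins (7 of 7 lower) lie at the 2 ends. Both families were picked after the values were seen, so their place gives no independent evidence.

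Ribosomal protein genes were called higher more often than lower, against 32.3% higher and 37.0% lower over all probe sets. Of 106 probe sets for proteins of the large (60S) ribosomal subunit, 55 were higher (51.9%) and 31 lower (29.2%) in oxt6, and of 59 for the small (40S) subunit, 27 were higher (45.8%) and 20 lower (33.9%), with medians of 0.47 and 0.30. The members ranged widely, from −2.76 to 3.06 in the 60S list. AT2G45710, a 40S protein gene, read 1440, 1879 and 1733 against 269, 317, 150 and 143 (log2 3.01). AT4G02230, of the 60S subunit, read 490, 135 and 141 against 1404, 1601, 1403 and 1348 (log2 −2.76), and AT5G07090, of the 40S subunit, fell by 2.15 on the log2 scale. The medians for wild-type against complemented leaves were 0.03 and −0.00. Of the 60S members 26 were higher and 3 lower in the fit with the control signal, and of the 40S members 8 were higher and 1 lower, with medians of 0.21 and −0.06, where all probe sets had −0.37.

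In protein breakdown the counts for the conjugating enzymes and the proteasome ran in opposite directions, though the difference between the lists was not tested. Ubiquitin-conjugating enzymes, which pass ubiquitin to proteins marked for removal, had 15 of 22 members higher and 3 lower in oxt6. UBC7 read 606, 1140 and 1048 against 165, 176, 164 and 141 (log2 2.47), and UBC13 read 775, 1381 and 1225 against 211, 243, 159 and 146 (log2 2.55). Subunits of the proteasome, which destroys the marked proteins, had 1 of 8 higher and 6 lower. RPN12a, of the regulatory particle, read 127, 102 and 93.5 against 483, 520, 581 and 651 (log2 −2.37), and AT5G45620, of the same particle, read 71.7, 66.8 and 56.5 against 311, 351, 342 and 329 (log2 −2.35). PAE1, of the catalytic core, was the exception at 556, 646 and 589 against 238, 253, 268 and 261 (log2 1.22). RPN12a and AT5G45620 stayed called in the fit with the control signal, and PAE1 did not (1.14, adjusted p = 0.0545). Of the conjugating enzymes that fit called 4 higher and 3 lower, with a median of 0.26 against 0.67 without it, and of the proteasome subunits none higher and 3 lower.

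Among protein folding genes more were lower than higher in oxt6, though not in every list as often as over all probe sets. Over all probe sets 32.3% were higher and 37.0% lower, and 7.07% and 17.8% in the fit with the control signal. The HSP60 to HSP100 chaperones had 6 of 12 lower and none higher, and the endoplasmic reticulum chaperones 6 of 7 lower and 1 higher. HSC70-1, the main cytosolic HSP70, read 1504, 773 and 695 against 6056, 6985, 8907 and 7526 (log2 −2.97), with the wild type at 1392 to 1672. DnaJ proteins, the helpers of HSP70, had 16 of 51 higher (31.4%) and 23 lower (45.1%). Cyclophilins and FK506-binding proteins had 7 of 39 higher (17.9%) and 13 lower (33.3%). Disulfide isomerases, which form the bonds that hold secreted proteins together, had 2 of 11 higher and 7 lower. Of the members in the endoplasmic reticulum list, UNE5 was at 132, 46.1 and 53.1 against 335 to 438 and PDIL1-1 was at 124, 70 and 58.8 against 321 to 538. HSC70-1 stayed called in the fit with the control signal (−1.64), whereas none of the 7 endoplasmic reticulum chaperones did. That fit called 4 HSP60 to HSP100 chaperones and 4 disulfide isomerases lower and none higher, 4 DnaJ proteins higher and 12 lower, and 4 cyclophilins and FK506-binding proteins higher and 5 lower.

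The oxt6 mutant was isolated for tolerance of oxidative stress, and redox genes were read as groups. Glutaredoxins, small thiol reductases, were raised in 16 of 21 cases and lowered in 1, with a median of 1.19, and with the control signal in the fit 6 were higher and none lower, with a median of 0.59. The list for peroxide and superoxide scavenging had no member higher and 22 of 27 lower, with a median of −1.21. Besides enzymes that remove them, it holds ascorbate oxidases, monodehydroascorbate reductases and the chaperone CCS, which do not. Against the same complemented leaves the wild type was lower at 17 of the 27 and higher at 1, with a median of −0.98. Oxt6 was lower than the wild type at 6 and higher at 2, with a median of −0.28. For glutaredoxins the wild type was higher than complemented leaves at 11 and lower at 1 (median 0.55). There oxt6 was higher than the wild type at 10 and lower at 2 (median 0.43). APX3, a peroxisomal ascorbate peroxidase, read 249, 87.2 and 20.1 against 641, 831, 946 and 973 (log2 −3.43), and its call was lost in the fit with the control signal (−0.43). CCS, the chaperone that loads copper into superoxide dismutase, read 91.5, 81.6 and 66.3 against 395, 416, 745 and 794 (log2 −2.80) and stayed called (−2.42). Of the 22 lowered members 5 were called lower in that fit, which called 17.8% of all probe sets lower. The scavenging median there was −0.49, against −0.37 over all probe sets.

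Glutathione-related genes had 10 of 52 members higher and 30 lower, and thioredoxin-related genes 22 of 55 higher and 23 lower. With the control signal in the fit the counts were 2 higher and 9 lower for glutathione-related and 7 higher and 11 lower for thioredoxin-related genes. That fit called 7.07% of all probe sets higher and 17.8% lower. GPX8, a glutathione peroxidase, was among those that rose, at 520, 756 and 670 against 119, 138, 122 and 108 (log2 2.39). ERD9, a glutathione S-transferase, fell, at 16.0, 27.0 and 21.8 against 133, 145, 177 and 166 (log2 −2.81), and both stayed called in the fit with the control signal. The 9 redox genes that the study set out by name were all higher in oxt6 than in complemented leaves, with a median of 1.35, and 5 of them stayed called in the fit with the control signal. Those 9 were chosen by the study on these arrays, and their direction gives no independent evidence. The median for wild-type against complemented leaves over them was 0.00, with 2 called higher and 2 lower in the wild type. The study's filter favoured genes less than 2-fold apart between those arms, so this median gives no independent evidence either.

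Chloroplast transcripts were read from the chloroplast genome, which holds genes for photosynthesis and for gene expression, and from nuclear genes of photosynthesis. Of 65 probe sets for chloroplast-encoded transcripts, 36 were higher and 13 lower in oxt6, with a median of 0.60, and the median for wild-type against the same complemented leaves was 0.93. With the control signal in the fit 12 were higher and 3 lower. Single transcripts lay far from the median on both sides. The mRNA of psaA, a reaction centre protein of photosystem I, read 42.6, 57.5 and 22.2 against 696, 506, 804 and 1207 (log2 −4.30), with the wild type at 19.9 to 52.8. The mRNA of ndhG, of the NADH dehydrogenase-like complex, read 682, 801 and 792 against 130, 164, 63.1 and 72.1 (log2 2.92), with the wild type at 570 to 656. In psaA and ndhG the complemented leaves were apart from both others. The mRNA of petN, of the cytochrome b6f complex, read 1119, 940 and 1381 against 286, 225, 46.9 and 61.3, and that of atpA, of the ATP synthase, read 395, 181 and 219 against 1237, 876, 2332 and 3519, with log2 differences of 3.26 and −2.78 that were not called in the fit with the control signal.

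Nuclear genes of the light reactions and the Calvin cycle were mostly lower in oxt6 than in complemented leaves. Of 7 light-harvesting and photosystem genes, 5 were lower and 1 higher, and all 3 Calvin cycle genes compared were lower, while with the control signal in the fit 1 of the light-harvesting and photosystem genes was lower and no other of these 10 was called. RCA, which keeps Rubisco active, read 3351, 712 and 631 against 6067, 6043, 8232 and 7673 (log2 −2.60), and LHCB4.1, a minor antenna protein of photosystem II, read 4080, 1130 and 926 against 7980, 7233, 8726 and 9018 (log2 −2.34). PSBY, a small photosystem II protein, fell by 2.23 on the log2 scale and PRK, the Calvin cycle kinase that makes the acceptor of carbon dioxide, by 2.34. For RCA and LHCB4.1 the first oxt6 array was over 3-fold above the other oxt6 arrays. None of these 4 was called in the fit with the control signal, and the log2 differences of RCA and LHCB4.1 turned to 0.35 and 0.07. Wild-type leaves were also below complemented leaves at all 3 Calvin cycle genes, with a median of −2.32. Between oxt6 and the wild type that median was 0.27, with no gene called. The light-harvesting and photosystem medians were −0.41 for wild type against complemented and −0.63 for oxt6 against wild type.

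**Figure D5:**
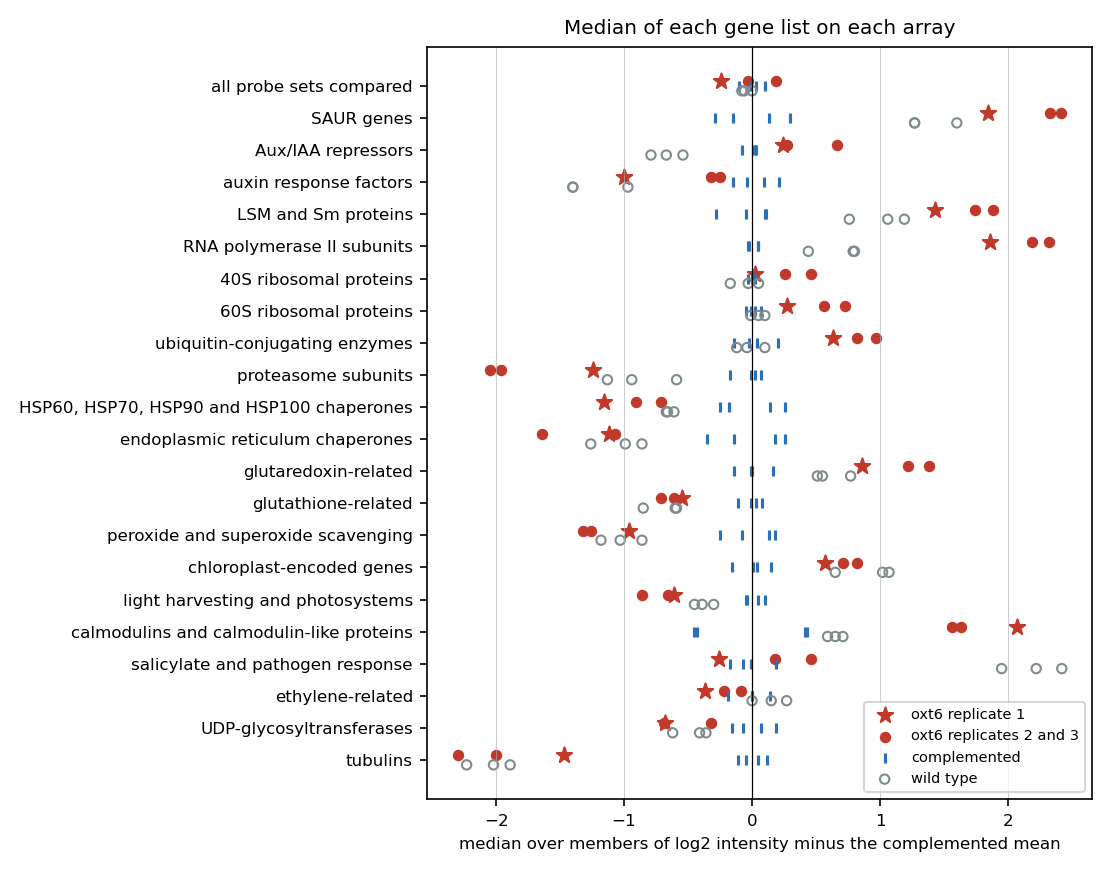
For each gene list, the median over its members of the log2 intensity minus the complemented mean on each array, with the first oxt6 array as a star, the other oxt6 arrays as filled circles, complemented arrays as ticks and wild-type arrays as open circles. The 3 oxt6 arrays of the SAUR genes lie at 1.84, 2.41 and 2.33, and the salicylate list is the one where wild-type leaves (2.22, 2.42 and 1.95) lie farthest from both other arms.

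Calmodulins and their relatives sense calcium, and calmodulin is a known partner of AtCPSF30. The list read here held calmodulin-like proteins and no gene of calmodulin itself. Of 6 compared, 4 were higher and none lower in oxt6, with a median of 1.76. TCH2, induced by touch, read 2439, 2081 and 1744 in oxt6 leaves, 487, 472, 186 and 187 in complemented leaves and 683, 664 and 625 in wild-type leaves (log2 2.79 ± 0.33 SE, adjusted p = 7.65e-06). Line 5 was higher than line 6 for TCH2, yet both lines were below every oxt6 and wild-type array. Of the 4 raised members 2 stayed called in the fit with the control signal, TCH2 at 3.07 and CML23 at 2.84.

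Salicylate and pathogen response genes separated wild-type leaves from both other arms more than oxt6 from complemented leaves. Of 8 compared, oxt6 leaves were above complemented leaves at 3 and below them at 3, with a median of 0.14, while 7 were higher in wild-type than in complemented leaves, with a median of 2.23. WRKY70, a regulator that favours salicylate over jasmonate responses, was the exception, at 190, 161 and 130 in oxt6 leaves, 559, 634, 975 and 785 in complemented leaves and 598, 564 and 379 in wild-type leaves (log2 −2.18). BGL2, a pathogenesis-related glucanase, read 43.9, 37.6 and 24.1 in oxt6 leaves and 83.7, 87.3, 139 and 134 in complemented leaves (log2 −1.63), both far below the wild type at 324 to 372. PDF1.2, a defensin induced by jasmonate and ethylene, read 1627, 1028 and 1049 in oxt6 leaves against 218, 240, 209 and 195 in complemented leaves (log2 2.48), with the wild type at 788 to 1798. In the fit with the control signal none of the 8 salicylate genes was higher and 2 were lower in oxt6. OPR3 and PDF1.2, both of the jasmonate list, thus differed in opposite directions.

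Ethylene-related genes had 9 of 31 members higher (29.0%) and 10 lower (32.3%), against 32.3% and 37.0% over all probe sets. With the control signal in the fit 2 were higher and 6 lower, where 7.07% and 17.8% of all probe sets were. EFE, an ethylene-forming oxidase, read 264, 245 and 150 against 1560, 1617, 1694 and 1709 (log2 −2.94), and EIL1, a transcription factor of ethylene signalling, read 53.0, 45.4 and 46 against 174, 178, 231 and 213 (log2 −2.02). Both were at the oxt6 level in wild-type leaves, at 281 to 325 and 39.4 to 51.9. CYP83B1, a step of indole glucosinolate synthesis, read 366, 244 and 204 against 2293, 2760, 2412 and 2558 (log2 −3.24), with the wild type between at 820 to 1033. EFE, EIL1 and CYP83B1 all stayed called in the fit with the control signal.

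Clock-related genes had 4 of 5 members lower and 1 higher. GI, an evening gene, read 324, 353 and 316 in oxt6 leaves and 2759, 823, 3965 and 4156 in complemented leaves (log2 −2.90), and GRP7, an RNA-binding protein under clock control, read 1529, 976 and 1029 against 6784, 7492, 8225 and 8695 (log2 −2.75). LHY, a morning gene, read 88.4, 113 and 96.0 against 37.2, 39.3, 40.6 and 40.3 (log2 1.3). The GI value of 823 on the second line 5 array set it apart from the other complemented arrays. The time of day of harvest is not given in the sources used here, and its part was not tested. In the fit with the control signal GRP7 stayed called (−2.15), and GI (−2.76, adjusted p = 0.0566) and LHY (0.92, adjusted p = 0.0516) did not.

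Tubulins, which build the microtubules that guide cell wall growth, were lower in oxt6 in all 7 cases, with a median of −1.95 and with wild-type leaves at −2.05 against the same complemented leaves. TUA6 read 405, 132 and 124 against 1303, 1429, 1698 and 1594 (log2 −2.99), and TUB6 read 376, 152 and 157 against 1106, 1039, 1265 and 1246 (log2 −2.48). The first oxt6 array was again the highest of its arm, and in the fit with the control signal 3 of the 7 were called, TUB6 among them (−0.82) and TUA6 not (−1.0, adjusted p = 0.0574). UDP-glycosyltransferases, which attach sugars to hormones and defence compounds, had 2 of 19 higher and 12 lower, and 1 higher and 6 lower with the control signal in the fit. UGT84B2 read 89.6, 98.6 and 76.2 against 21.5, 29.7, 19.9 and 18.3 (log2 1.95), and UGT85A2 read 45.1, 39.6 and 36.2 against 166, 172, 193 and 189 (log2 −2.13). Both stayed called in the fit with the control signal. Tubulins and UDP-glycosyltransferases were picked as families after the values were seen, so their counts give no independent evidence.

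Iron genes gave an example of arms that differed in both directions. NAS3, which makes the metal chelator nicotianamine, read 254, 326 and 310 in oxt6 leaves and 52.7, 51.9, 90.1 and 96.5 in complemented leaves (log2 2.06). OPT3, a phloem transporter of iron, read 31.7, 31.1 and 31.8 in oxt6 leaves and 99.2, 116, 130 and 122 in complemented leaves (log2 −1.85). Wild-type leaves were near the complemented level for NAS3, at 91.6 to 116, and above it for OPT3, at 143 to 217.

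The 2 complemented lines were compared with each other to see how much of the arm's spread lay between transformants. Line 5 was higher than line 6 at 399 probe sets (3.20%) and lower at 132 (1.06%). This set 2 arrays against 2, fewer than oxt6 against the lines together, so the counts of the 2 comparisons are not alike. The main fit took the complemented arrays as independent, though they came from 2 lines. With line as a random block, where arrays of 1 line correlated at 0.797, 7342 probe sets were called, against 8631. Setting oxt6 against each line by itself called 7248 probe sets for line 5 and 8247 for line 6. The lines shared the low 3′/5′ signal, so a comparison between them carries little of that difference.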

How the data were processed

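Leaf RNA was purified with Trizol and an RNeasy kit, labelled with biotin from 4 µg and hybridised to Affymetrix ATH1 arrays. The deposited values are PLIER intensities on a linear scale made by the authors, with a floor at 16; the PLIER version is not given in the sources used here. Of 22810 probe sets, 64 controls were left out, 1 was added before taking log2, and the 12453 with the highest mean over the 10 arrays (a mean log2 of 5.5 or more) entered limma 3.58.1 under R 4.3.3 with 3 arm means, a trended variance and Benjamini-Hochberg adjustment. The fit was tested on simulated data with independent errors, few changed probe sets and no 3′/5′ difference between arms. That test does not cover the conditions of these arrays. Of the probe sets compared, 7240 name 1 gene. Named genes were the 12 highest and 12 lowest, the 6 highest and 6 lowest with the wild type within 2-fold of complemented leaves, and up to 4 called members of each list. Lists came from the study's tables, textbook knowledge and symbol families (SAUR, Aux/IAA, ARF, tubulins, LSM and Sm, UDP-glycosyltransferases), the families picked after values were seen. The members and lists were chosen with earlier results of these data known. Alternatives are given in the closing section. No depth applies to arrays, and their number limits the precision.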

Additional observations from a re-analysis of the deposited data

Results flagged for a closer look

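Among the genes named above, 1 had a complemented array set apart by Dixon's ratio of gap to range, which was applied to the complemented arm of 4 arrays and not to the arms of 3, where the first oxt6 array stood apart for the genes described above. LSM3A read 132, 130, 136 and 96.9 in complemented leaves, and the gap of the second line 6 array to its neighbour was 0.846 of the range. Chance alone marks about 1 group in 20 by this measure.

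Intensity differed between the complemented lines, by limma's test of line 5 minus line 6 at an adjusted p under 0.05, for 14 named genes. The cause was not tested. Line 5 was higher for petN (log2 2.22), TCH2 (1.36), RL6 (1.19), ndhG (1.1), SAUR15 (1.09), OPR3 (1.01), THI2.2 (1.0), AT2G45710 (0.99) and AT4G38840 (0.91). Line 5 was lower for atpA (−1.46), PWD (−0.93), CCS (−0.92), AGAL1 (−0.82) and NAS3 (−0.82). Except for petN, where oxt6 differed from line 5 by 2.15, each of these differences was smaller than that between oxt6 and either line.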

How the results depend on the processing

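The largest change came with the 3′/5′ signal as a covariate. It called 3093 probe sets, 881 higher and 2212 lower in oxt6, and 2866 at 2-fold or more, 811 of them higher. Of 78 named genes compared, 6 changed sign under at least 1 setting: PRXR1 (0.02), IAA7 (0.00), RCA (0.35), LHCB4.1 (0.07) and AT3G12830 (−0.86) with the covariate, and AT1G56150 (0.02) with equal array medians. A further 21 named genes lost their call with the covariate. The list medians that turned under it were those of the 40S ribosomal proteins (−0.06), light harvesting (0.07) and salicylate response (−0.42). Others kept their sign and moved, to 0.21 for 60S ribosomal proteins, 0.22 for Aux/IAA repressors, −1.01 for ARFs and 1.52 for SAUR genes. LSM and Sm proteins moved to 1.21, RNA polymerase II to 1.75, ubiquitin-conjugating enzymes to 0.26 and the proteasome to −0.91. Both endoplasmic reticulum chaperones and tubulins moved to −0.82, glutaredoxins to 0.59, glutathione-related genes to −0.34 and the scavenging list to −0.49. Calmodulin-like genes moved to 2.31, the clock to −1.73 and ethylene-related genes to −0.44. Over all probe sets the median was −0.37 in that fit, against −0.03 without it. The cause was not tested.

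Setting all array medians equal moved the median of all probe sets to 0.17, against −0.03 as deposited, and the share of calls that were higher to 56.4%, against 46.7%. Under it the ethylene-related median turned to 0.01, and the medians were 0.5 (40S), 0.67 (60S), 0.59 (Aux/IAA), 2.28 (RNA polymerase II), 0.87 (ubiquitin-conjugating), 1.39 (glutaredoxins), −0.48 (glutathione), −1.02 (scavenging), 0.79 (chloroplast-encoded), −0.55 (light harvesting) and −0.33 (UDP-glycosyltransferases). Quantile normalization gave −0.05 for ethylene-related and −0.58 for glutathione-related genes. With the 8000 brightest probe sets the salicylate median turned to −0.96, and the medians were 0.13 (Aux/IAA), −1.44 (HSP chaperones), −1.68 (endoplasmic reticulum chaperones) and −0.97 (UDP-glycosyltransferases). With no filter they were 0.17 (Aux/IAA), 1.02 (calmodulin-like) and −0.2 (UDP-glycosyltransferases). Array weights gave 2.53 (SAUR), −2.1 (proteasome), −1.69 (endoplasmic reticulum chaperones), 0.86 (chloroplast-encoded), −0.87 (light harvesting), −2.27 (tubulins) and −0.72 (UDP-glycosyltransferases).

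Against line 5 alone the 3′/5′ signal differed by 2.15 and against line 6 alone by 2.25, where the permutation test cannot pass the threshold. Medians for line 5 alone were −0.63 (HSP chaperones), 0.9 (calmodulin-like), −2.21 (clock), −0.58 (glutathione) and −0.97 (scavenging). For line 6 alone they were −1.3 (HSP chaperones), 2.61 (calmodulin-like), 0.93 (chloroplast-encoded) and −1.66 (endoplasmic reticulum chaperones). The methods' t-test, run on the intensities, called 6143 probe sets with p under 0.01 and no adjustment, of which 2635 were higher in oxt6, and 7814 with Benjamini-Hochberg adjustment. With log2 ratios of mean intensities, as that test compares them, the clock median was −2.27.

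Leaving out 1 array at a time cost no named gene its call and gave 7851 to 9020 called probe sets. The 3′/5′ difference was 1.88 to 2.78, with the permutation test then unable to pass. List medians ranged over 0.37 to 0.63 (60S), 1.98 to 2.26 (RNA polymerase II), 0.59 to 0.84 (ubiquitin-conjugating), 0.59 to 0.74 (chloroplast-encoded), −2.88 to −2.31 (clock), −0.38 to −0.16 (ethylene-related) and −0.72 to −0.6 (glutathione-related).

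The replicate numbers give no pairing, since same-numbered arrays of different arms correlated at −0.206 to 0.149 in their deviations. With the replicate block 8142 probe sets were called, 3758 higher and 4384 lower. The planned description by protein length was not run.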
